A study of Drosophila melanogaster with 2 samples.

Results

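The genes described here are 31 Drosophila melanogaster genes of the cell cycle and of DNA replication, taken by symbol from a list of cyclins, kinases, E2F factors, replication proteins and mitotic regulators. All 31 symbols matched a gene in the annotation, out of 13968 protein-coding genes on 7 chromosomes. They were read in chromatin immunoprecipitation with sequencing (ChIP-seq) of a CG1024-eGFP fusion, the product of the CG1024 gene joined to enhanced green fluorescent protein, pulled down with an anti-GFP antibody. The study held 1 group of 2 biological replicates, whole embryos 0 to 24 hours old from transgenic flies of the strain CG1024-GFP, which carry an insertion targeted to CG1024, and no second condition was analysed here. Whole embryos hold dividing and resting cells together, so a summit in few cells and a weak summit in many cannot be told apart. The data are lists of peaks on genome build dm6. A summit is the highest position of a peak, and a peak's signal is the authors' own value with no stated scale. The depth behind a peak is unknown, since the lists hold no read counts.

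Cell division is driven by cyclin-dependent kinases (Cdks), which are active when bound to a cyclin and are switched on by Cdc25 phosphatases. E2F factors, bound to Dp and held back by the retinoblastoma protein, turn on genes needed for S phase. Replication origins are marked by the origin recognition complex and licensed by Cdt1, which loads the Mcm helicase and is blocked by geminin. In the fly embryo the first divisions run on maternal products as rapid rounds without gap phases, and later divisions depend on zygotic transcription of string (stg).

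Of the 31 genes, 8 (25.8%, 95% Wilson interval 13.7 to 43.2) had a summit of the conservative series-level list within 500 bp of a transcription start site (TSS). These were CycD, CycE, Cdk1, Dp, dup, Mcm2, dpa and RnrS. Over all protein-coding genes the share was 14.1%. The interval covers the counting of genes only, and no test was run for the list, which was chosen with earlier results of these data known. The sequences that follow are examples and do not bear on this count. For CycD, CycE and Cdk1 they are the 100 bases each side of the strongest summit, which is base 101. For Mcm2 and for Orc2, a member with no summit, they run from 250 bases before the TSS to 49 after it. Each is read 5′ to 3′ on the strand of the gene, from the RefSeq FASTA of the same assembly. Capitals mark matches on either strand to TATCGATA, the DNA replication-related element bound by Dref, to the E2F motifs TTTCCCGC and TTTCGCGC, to TTTGAA, the cell cycle homology region, to CACTG, searched because earlier results of these data pointed to it, and to CAGCNCTA or CATCNCTA, the core promoter element Ohler 7.
CycD, chrX:15909609-15909809, minus strand: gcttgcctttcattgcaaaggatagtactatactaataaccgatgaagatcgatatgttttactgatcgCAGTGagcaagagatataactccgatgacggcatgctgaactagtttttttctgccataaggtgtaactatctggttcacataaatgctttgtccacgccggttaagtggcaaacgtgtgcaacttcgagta
CycE, chr2L:15746910-15747110, minus strand: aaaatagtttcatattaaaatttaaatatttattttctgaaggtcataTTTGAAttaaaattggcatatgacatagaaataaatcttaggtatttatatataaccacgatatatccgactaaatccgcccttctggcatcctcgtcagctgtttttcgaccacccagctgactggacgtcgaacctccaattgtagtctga
Cdk1, chr2L:10386463-10386663, minus strand: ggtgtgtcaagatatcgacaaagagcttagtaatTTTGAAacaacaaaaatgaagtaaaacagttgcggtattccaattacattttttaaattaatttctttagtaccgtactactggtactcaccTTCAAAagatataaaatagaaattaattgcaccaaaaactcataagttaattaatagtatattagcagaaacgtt
Mcm2, chr3R:8264720-8265019, plus strand: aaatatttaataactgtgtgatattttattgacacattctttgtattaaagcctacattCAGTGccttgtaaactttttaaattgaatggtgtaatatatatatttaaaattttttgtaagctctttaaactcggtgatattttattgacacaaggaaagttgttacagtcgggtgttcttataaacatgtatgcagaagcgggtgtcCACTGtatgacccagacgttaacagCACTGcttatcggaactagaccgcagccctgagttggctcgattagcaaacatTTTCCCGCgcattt
Orc2, chr3R:13964635-13964934, plus strand: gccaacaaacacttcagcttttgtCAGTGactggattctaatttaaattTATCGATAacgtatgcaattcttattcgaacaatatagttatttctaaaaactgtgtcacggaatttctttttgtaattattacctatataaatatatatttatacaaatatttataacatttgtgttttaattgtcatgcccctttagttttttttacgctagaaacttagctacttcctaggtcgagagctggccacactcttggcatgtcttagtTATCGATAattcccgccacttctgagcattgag
In the CycD window the capitals are CAGTG, the reverse complement of CACTG. CycE shows TTTGAA, and Cdk1 shows it on each strand. Mcm2 holds CACTG in both orientations and an E2F motif after the TSS, which lies outside the 100 bases each side of its summit. Orc2 holds TATCGATA before and after its TSS.

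Among the cyclins and Cdks, 3 of 7 had a promoter summit. Here CycD, which encodes the D-type cyclin that partners Cdk4 (FBgn0010315, X, 15906822 to 15909676), had the strongest of all members, with a signal of 128.0 at 15909709, 33 bp upstream of its only annotated TSS. Its signal was 66.65 in replicate 1 and 62.71 in replicate 2, and the peak was in the thresholded list of each. A second CycD summit lay 486 bp upstream with a signal of 72.5. That peak had 39.7 in replicate 1 and 38.8 in replicate 2 and was in neither replicate's thresholded list. The peak next to the TSS thus passed the threshold in each replicate alone. The upstream one was ranked in each replicate and passed the threshold in neither.

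Cdk1, the kinase that drives entry into mitosis (FBgn0004106, 2L, 10384739 to 10386262), had a summit at 10386563 with a signal of 109.9, 301 bp upstream of its TSS. The replicates gave 45.1 and 61.1, and the peak passed the threshold in replicate 2 and not in replicate 1, where its irreproducible discovery rate (IDR), the authors' measure of how poorly a peak of that rank is found again, was 0.372. The same summit lay 99 bp upstream of mRpS7, a mitochondrial ribosomal protein gene on the other strand whose TSS is 400 bp from that of Cdk1, so the summit is nearer to mRpS7.

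CycE, the cyclin that works with Cdk2 at the start of S phase (FBgn0010382, 2L, 15727581 to 15748150), had a summit at 15747010 with a signal of 76.9. It lay in an intron, 400 bp upstream of the nearest of 3 TSSs. Replicate 1 had a ranked peak there of 32.8, below its threshold, and no ranked peak of replicate 2 overlapped it, although one of 7.44 lay elsewhere within 500 bp of a TSS. CycE was the only one of the 8 whose peak had no counterpart in a replicate's ranking. The other genes of the group had no conservative summit. Their strongest ranked promoter peaks, from the full series-level ranking that includes peaks below the threshold, had signals of 19.0 at CycA, 24.8 at CycB and 21.85 at CycB3, which encode the mitotic cyclins, and 19.4 at Cdk2. Cdk1 thus passed the threshold and its mitotic cyclins did not, and CycE passed it and its kinase Cdk2 did not. Differences between genes were not tested. Cdk4, the partner of CycD, had a ranked promoter peak of 29.9 with an IDR of 0.459.

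The Cdc25 phosphatase genes had no promoter summit. At stg, whose transcription sets the timing of the later embryonic divisions, the strongest ranked peak reached 40.3, against 21.9 and 16.6 in the replicates, and had an IDR of 0.148. For members without a conservative summit, a replicate's value is its own strongest ranked peak within 500 bp of a TSS, not necessarily the same peak. At twe, which encodes the phosphatase known for meiosis and early maternal supply, no ranked peak lay within 500 bp of a TSS in the series-level ranking or in that of either replicate.

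**Figure D1:**
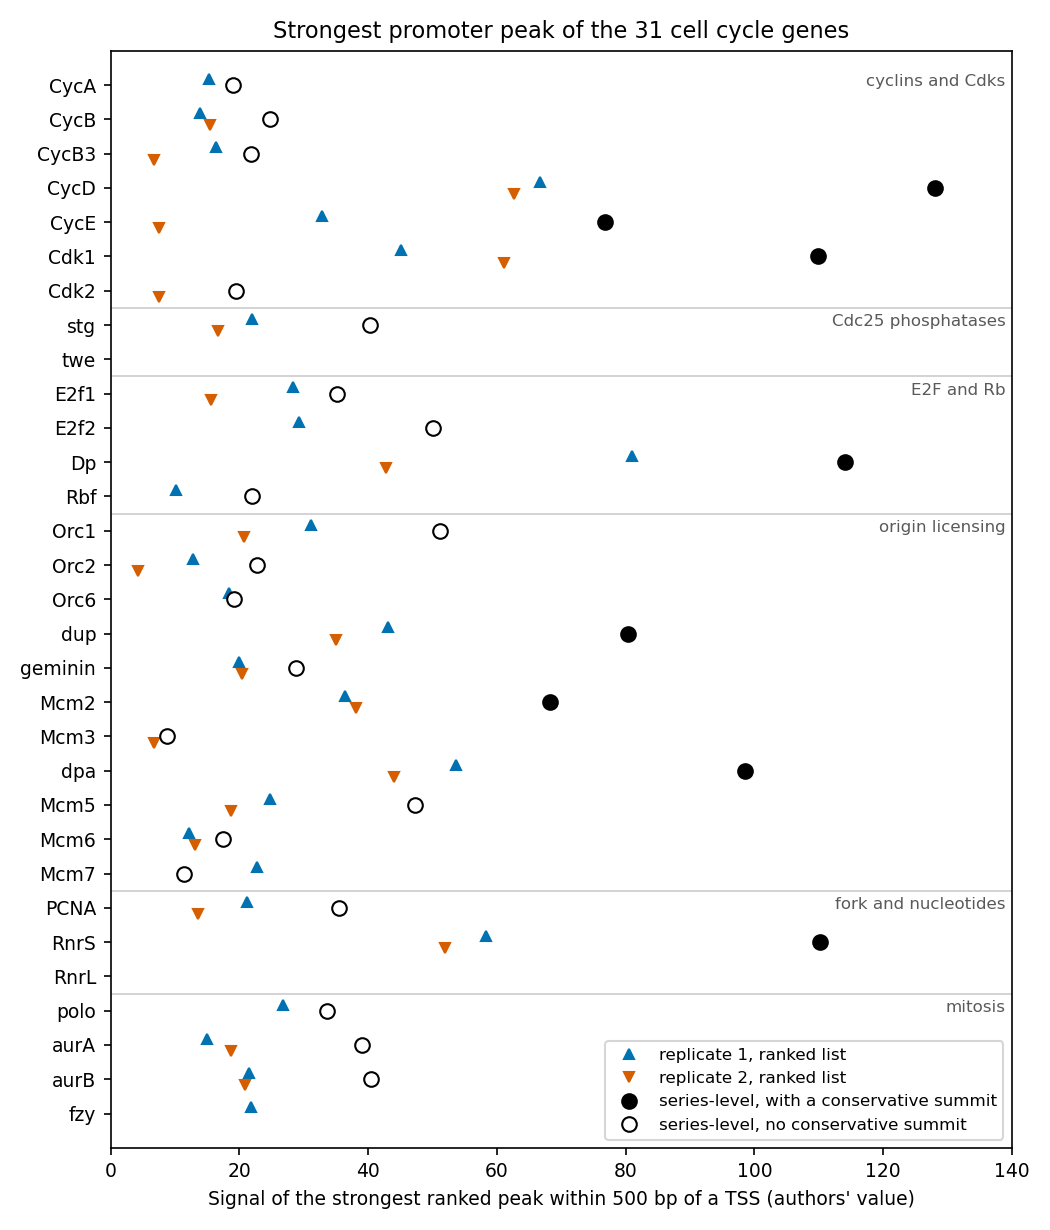
Signal of the strongest ranked peak within 500 bp of a TSS for each of the 31 genes, in the series-level ranking (circles) and in each replicate's own ranking (triangles). The 8 filled circles, from 68.3 at Mcm2 to 128.0 at CycD, lie above every open circle, the highest of which is Orc1 at 51.2, and a missing symbol means that no ranked peak was found.

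In the E2F and retinoblastoma group, Dp had a promoter summit and the other 3 genes had none. Dp, the partner through which both E2F proteins bind DNA (FBgn0011763, 2R, 13222433 to 13228202), had summits at 13223407, 184 bp upstream of a TSS, with a signal of 114, and at 13223951, 360 bp downstream of the same TSS, with 73.7. The upstream peak had 81.0 in replicate 1 and 42.7 in replicate 2, and the downstream peak 47.3 and 30.8. Each peak was in the thresholded list of each replicate. Signals have no stated scale, so their levels were not compared between the replicates' lists. Both summits are intronic, since the longest Dp transcript starts 1158 bp further upstream.

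E2f2, the repressor E2F, came nearest to the threshold among the members without a conservative summit, with a ranked signal of 50 and an IDR of 0.0108 against the limit of 0.01. Replicate 1 gave 29.3, and replicate 2 had no ranked peak in the window. E2f1, the activator, had 35.1 (28.3 and 15.6 in the replicates), and has 5 annotated TSSs, more than any other member. Rbf, which encodes a fly retinoblastoma protein, had 21.95 with 10.2 in replicate 1 and no ranked peak in replicate 2.

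Of the 11 origin licensing genes, 3 had a promoter summit. At dup, the fly Cdt1 (FBgn0000996, 2R, 15376619 to 15380988), the summit at 15380659 had a signal of 80.4, with 43.1 in replicate 1 and 34.9 in replicate 2. It was in neither thresholded replicate list. The summit lay 45 bp upstream of the nearer dup TSS, in the 5' UTR of a transcript that starts further upstream, and 65 bp upstream of SRPK, which encodes a kinase of splicing factors and is read the other way. At geminin, the inhibitor of Cdt1, the strongest ranked peak had 28.8, with 19.9 and 20.4 in the replicates.

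Among the 6 genes of the Mcm helicase, Mcm2 and dpa had a summit. At dpa, which encodes Mcm4 (FBgn0015929, 2R, 7496702 to 7500145), the summit at 7499987 had a signal of 98.5, with 53.7 in replicate 1 and 44.1 in replicate 2. It lay 110 bp upstream of the nearer TSS and 160 bp upstream of didum, the myosin V gene on the other strand, whose start is 2 bp from that of the longer dpa transcript. Mcm2 (FBgn0014861, 3R, 8264970 to 8267924) had a summit at 8264898, 72 bp upstream, with a signal of 68.3, the lowest of the 8. Its replicates gave 36.45 and 38.13, each past its own threshold. The same summit lay 447 bp upstream of RPA1, which encodes a subunit of the replication protein that coats single-stranded DNA. It thus fell within 500 bp of a TSS of both replication genes and was nearer to Mcm2. The other Mcm genes spanned a wide range below the threshold, from 8.7 at Mcm3 and 11.45 at Mcm7 to 17.4 at Mcm6 and 47.2 at Mcm5. Subunits of 1 complex therefore fell on both sides of the threshold.

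The 3 genes of the origin recognition complex on the list had no conservative summit. Orc1 reached 51.2, with 31.05 and 20.7 in the replicates and an IDR of 0.0205, and its peak was in the other series-level list. Orc2 had 22.65 and Orc6 had 19.2.

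At the replication fork, RnrS had a summit and RnrL and PCNA had none. RnrS and RnrL encode the small and large subunits of ribonucleotide reductase, the enzyme that supplies deoxynucleotides. The RnrS summit (FBgn0011704, 2R, summit 11985587) had a signal of 110.3, with 58.3 in replicate 1 and 51.9 in replicate 2, and was in both thresholded lists. It lay 194 bp upstream of RnrS and 421 bp upstream of CG34231 on the other strand. RnrL had no ranked promoter peak in any of the 3 rankings. PCNA, the sliding clamp of the DNA polymerases, had 35.5, with 21.2 and 13.5 in the replicates.

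None of the 4 mitotic regulators had a promoter summit. The kinase genes aurB, aurA and polo had ranked signals of 40.5, 39.05 and 33.55, and the IDR of the aurB peak was 0.0463. At fzy, the Cdc20 activator of the anaphase-promoting complex, the series-level ranking held no promoter peak and replicate 1 alone had a ranked peak of 21.7. With 4 genes, a count of 0 leaves a Wilson interval up to 49.0%.

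**Figure D2:**
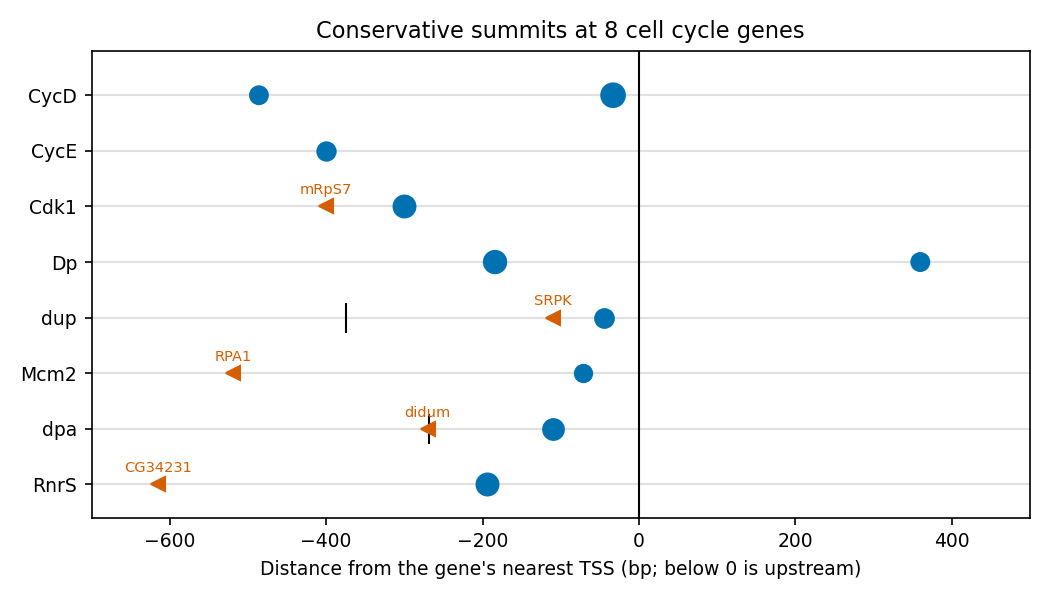
Conservative summits (circles, area in proportion to signal) at the 8 genes, by distance in bp from the gene's nearest TSS at 0. Black ticks are further TSSs of the gene within the range drawn, and triangles are TSSs of other genes within 500 bp of the summit. The strongest summit of every gene lies left of 0, between 33 and 400 bp upstream.

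In strength and position the 8 summits lay within the range of promoter summits elsewhere. Their strongest signals ran from 68.3 to 128.0 with a median of 104, beside a median of 102 over the 1975 protein-coding genes with a promoter summit. Of the 1659 promoter summits in the list, 606 (36.5%) were stronger than that of CycD, and the highest reached 1675. All 8 strongest summits lay upstream of the nearest TSS of their gene, as did 87.5% over all genes with one. Their median distance was 147 bp, against 120 bp. At 5 of the 8 another gene's TSS lay within 500 bp of the summit, against 56.5%. More than 1 promoter summit was found at 2 of the 8 and at 6.43% of all genes with one. The GC content of the 10 summit windows ran from 26.9% at RnrS to 51.7% at the upstream Dp summit, with a median of 39.8%. Over all promoter summit windows the median was 36.3% and the quartiles 31.8% and 42.3%.

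The replicates separately gave lower counts of members, and each stood above the share of all genes. Replicate 1 had a promoter summit at 5 of 31 members (16.1%) and at 11.4% of all protein-coding genes. Replicate 2 had one at 6 of 31 (19.4%) and at 10.5%. The same 5 members, CycD, Dp, Mcm2, dpa and RnrS, were found in both replicates, where the share of all genes was 8.0%, and replicate 2 added Cdk1. In the other series-level list 9 of 31 (29.0%) had a summit, the ninth being Orc1, against 16.2%. In all 5 of these counts the Wilson interval of the members held the share of all genes. It did so narrowly in the conservative list (from 13.7%, against 14.1%) and the other series-level list (from 16.1%, against 16.2%). The lists overlap, so the 5 counts are not separate evidence. With 31 genes the intervals are wide, and the excess was not tested.

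**Figure D3:**
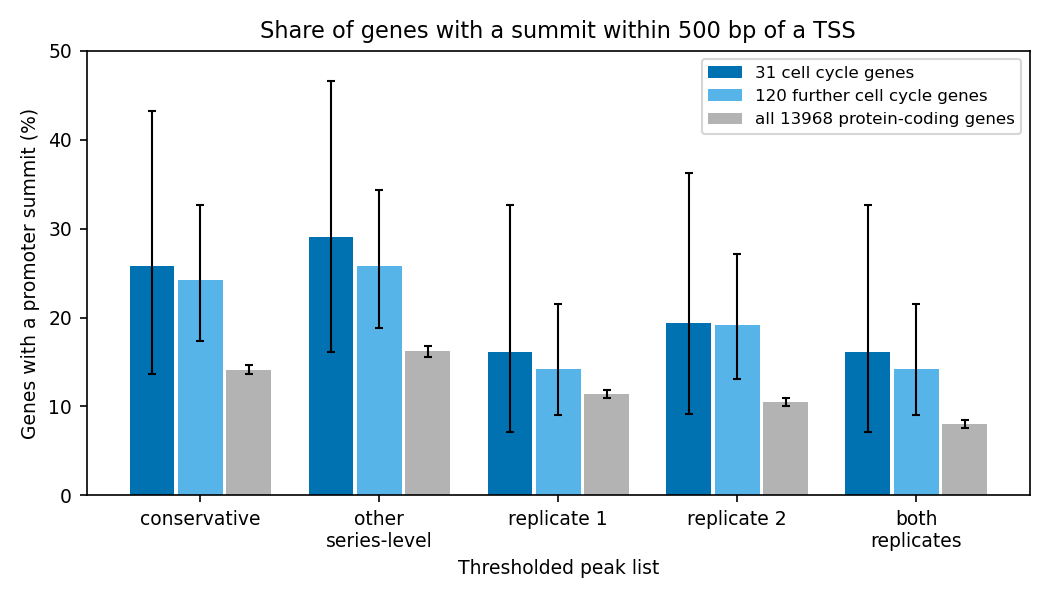
Share of genes with a summit within 500 bp of a TSS in each thresholded list, for the 31 genes, 120 further cell cycle genes and all 13968 protein-coding genes, with 95% Wilson intervals as error bars. In the conservative list the bars stand at 25.8%, 24.2% and 14.1%, and the intervals of the 31 genes reach the bar of all genes in every list.

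Of the 10 conservative peaks at the members, 6 were in the thresholded lists of both replicates, 1 (Cdk1) in that of replicate 2 only, and 3 (the upstream CycD peak, CycE and dup) in neither. Over all 1659 promoter summits, 919 (55.4%) were in both and 326 (19.7%) in neither. Among the thresholded lists, CycE and dup therefore rest on series-level lists alone.

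The full ranking gave a value to members below the threshold. The strongest promoter signal had a median of 35.1 over the 31 genes, counting the 3 with no ranked peak as 0, and 24.2 over all protein-coding genes. It was above that median at 19 of 31 members (61.3%), and 6 (19.4%) lay above the 90th percentile of all genes, 77.3. No ranked peak was found at 3 members (9.68%), twe, RnrL and fzy, and at 20.6% of all genes. Most members without a summit thus lay in the middle of the genome-wide range, with Orc1, E2f2 and Mcm5 higher than 82.9%, 82.3% and 80.8% of genes.

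**Figure D4:**
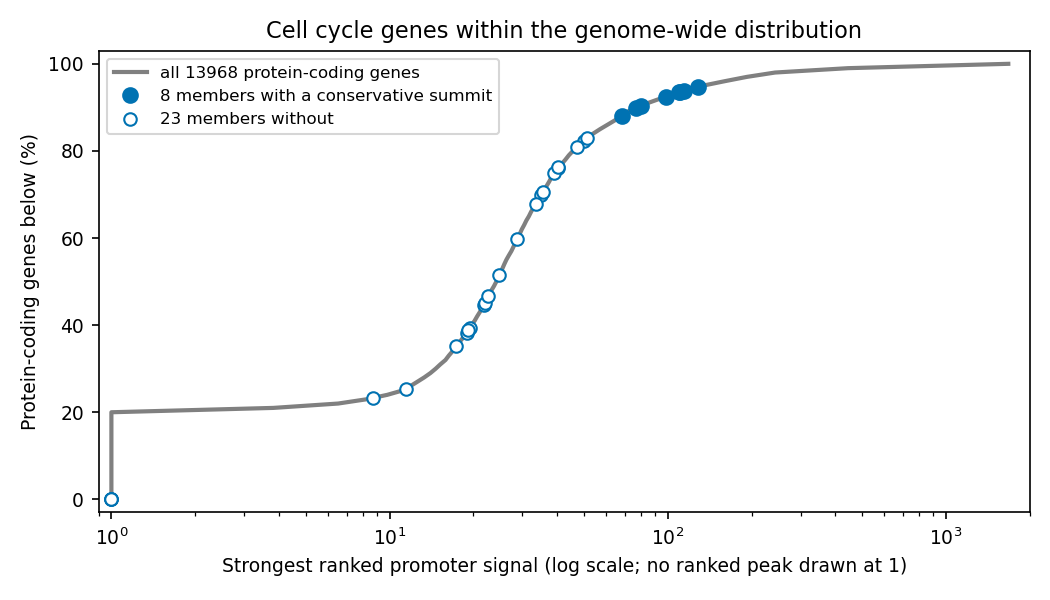
Strongest ranked promoter signal (log scale, no ranked peak drawn at 1) against the percentage of protein-coding genes with a lower signal. The 8 genes with a conservative summit (filled) lie between the percentages 88.1 and 94.6, and the other 23 (open) are spread from 0 to 82.9.

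Outside the promoter windows, 0 of 31 gene bodies held a conservative summit, for which the Wilson interval reaches 11.0%, and the share of all genes was 6.16%. With promoter windows included, 4 of 31 members (CycE, Dp, dup and dpa; 12.9%) had a summit between gene start and end, against 9.39%. Most members are short, and only 0.459% of all genes under 2 kb and 2.18% of those of 2 to 5 kb had a gene-body summit, classes that hold 6 and 21 members. Over 20 kb the share was 38.8%, and the members of that class were CycE, of 20570 bp, and E2f1, of 40568 bp. The E2f1 body held 51 ranked peaks with a highest signal of 41, and the CycE body 18 with a highest of 44.1. Among members without a promoter summit, the nearest conservative summit lay 1052 bp from PCNA, 1088 bp from Mcm3 and 1440 bp from aurB, and 86364 bp from Cdk2.

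The share of genes with a promoter summit was higher with 2 or more TSSs and with divergent neighbours, and the members lay in these classes more often than all genes. Of the 31 members, 12 had 2 or more TSSs, beside 3699 of 13968 genes. A divergent neighbour was found at 17 of the 31, beside 4914 of 13968 genes. The share of 14.1% over all genes does not allow for this. Of 19 members with 1 annotated TSS, 4 had a summit, against 10.8% of all such genes, and of 12 with 2 or more, 4 had one, against 23.3%. A protein-coding gene starting in the opposite direction within 1000 bp was found at 17 members, of which 6 had a summit, against 23.8%. Of the 14 with no such neighbour, 2 had one, against 8.91%. The part of these features in the members' count was not tested.

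The motifs marked in the printed windows were counted at every promoter, on both strands, around the outermost TSS of each gene. TATCGATA was found from 250 bases before to 50 after the TSS of 4 members, CycA, Cdk2, Orc2 and PCNA (12.9%, and 9.36% of all promoters), and none of the 4 had a summit. Genome-wide, 298 of the 1308 promoters with it (22.8%) had one. CAGCNCTA or CATCNCTA was found at 9 members (29.0%, and 9.76% of all promoters): CycA, CycB, Cdk2, stg, Orc1, geminin, Mcm5, Mcm7 and PCNA. In this window none of these 9 had a conservative summit either, against 22.2% of the 1363 promoters with this element. With either element, 10 members held a match in the shorter window and 0 had a summit, and 22.1% of 2348 promoters genome-wide had one. The strongest summits of CycE, Cdk1, Dp, dup and dpa lie outside that window, so the sequence at those summits was not searched in it. No test was run on these 10 members, and the counts depend on the window. In 500 bp each side of the TSS the Ohler 7 element was found at 14 members (45.2%, and 19.4% of all promoters), of which dup and Mcm2 had a summit. TATCGATA was found there at the same 4 (12.9%, and 12.3%), of which 0 had one. The union of both elements was formed after the values were seen.

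TTTCCCGC was found at Mcm2, 36 bases after the TSS, and at Mcm3, 6 bases before it (6.45%, and 1.43% of all promoters). TTTCGCGC was found at Orc6 (3.23%, and 1.15%). TTTGAA was found at 16 members (51.6%, and 40.8%), and CACTG at 15 (48.4%, and 46.2%). In the 201 bases around the summits, TTTGAA was found at 4 of the 10 member peaks, those of CycE, Cdk1, dpa and RnrS (28.9% of all summit windows). CACTG was found at 5, both CycD peaks, dup, Mcm2 and dpa (51.8%). The E2F motifs, TATCGATA and the Ohler 7 element were found at 0 of the 10, and at 0.53%, 0.648%, 4.27% and 6.39% of all summit windows. No member promoter held overlapping matches of different motifs. A match is a description of letters and not of a bound site.

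A wider list of 120 cell cycle genes, 8 of whose 128 symbols did not match the annotation, gave 29 with a promoter summit (24.2%, interval 17.4 to 32.6), beside 14.1% of all genes, and 17 (14.2%) in both replicates' lists, beside 8.0%. Gene bodies held one at 6 (5.0%). The count was 7 of 18 for cohesin and condensin, 4 of 9 for centrosome genes, 2 of 4 for checkpoint kinases, 4 of 17 for the anaphase-promoting complex and spindle checkpoint, and 5 of 22 for passenger, kinetochore and spindle genes. It was 1 of 9 for cyclin and Cdk regulators, 1 of 7 for Myb-MuvB, 2 of 11 for further origin and helicase genes, 2 of 20 for the replication fork and 1 of 3 for nucleotide synthesis. These counts are small and the groups were not compared by a test. The share of all genes does not allow for the number of TSSs or for divergent neighbours, which were not counted for the wider list.

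The strongest summits of the wider list exceeded that of CycD. The cohesin subunit gene vtd had a signal of 1056, the cohesin loader gene Nipped-B 699, the histone kinase gene Haspin 602.5 and the cohesin regulator gene pds5 317. The DNA polymerase delta subunit gene PolD2 had 249, the ATR kinase gene mei-41 241, the anaphase-promoting complex gene Cdc27 227, the ATM kinase gene tefu 162 and the topoisomerase gene Top1 143. These 9 were in both replicates' thresholded lists, and each summit lay 32 to 325 bp upstream of its gene. Cohesin genes gave 3 of the 4 highest values. The summit of vtd lay at 27136461 on 3L, and those of Nipped-B and Haspin at 4729049 and 4014051 on 2R. The part of chromosome position in these levels was not tested. At 5 of the 9, vtd, pds5, PolD2, mei-41 and tefu, another gene's TSS also lay within 500 bp of the summit. Bub3 and Cap-D2, of the spindle checkpoint and of condensin, had the same single summit of 108 on 3R. It was in the thresholded list of replicate 2 and not in that of replicate 1. Each of the pair is counted among the 29 genes.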

How the data were processed

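CG1024-eGFP was read by ChIP-seq with an antibody against GFP in 2 biological replicates of whole embryos. The authors deposited peak lists on build dm6, per the labels. Neither the aligner nor the peak caller is given in the sources used here. The signal of a peak is the value the authors deposited, relative to a control and on a scale that is not stated. The deposited score is scaled by the authors from the IDR, with a maximum of 1000, and the ranked lists also hold the authors' −log10 of the global IDR. Every peak of a thresholded list had a global IDR no higher than 0.01 in the matching ranked list. The conservative list held 3401 peaks, the other series-level list 3992, replicate 1 held 2599 and replicate 2 held 2291.

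Summits on 7 chromosomes were joined to TSSs of Ensembl release 115 within 500 bp, with scipy 1.17.1, matplotlib 3.10.9, pandas 2.3.3 and numpy 2.4.6 under Python 3.11.15. For members with a conservative summit, the value of a peak in a replicate is the strongest overlapping peak of that replicate's ranked list. For the other members it is the replicate's strongest ranked peak within 500 bp of a TSS, which need not overlap the series-level peak. The sequences were read from the RefSeq FASTA of the same assembly. All 31 genes are named, those with a conservative summit in full and the others by their strongest ranked promoter peak. Other genes are named where their TSS lies within 500 bp of a member's summit, and, in the wider list, the 10 with the strongest promoter summit, of which 1 is not reported here; Cdk4 as partner of CycD and the pair Bub3 and Cap-D2 were added after their values were seen. The members, lists and motifs were chosen with earlier results of these data known. With 1 group no test was run, and Wilson intervals at 95% cover the counting of genes only. The counting functions were tested on simulated data. Alternatives covered the list, the IDR limit, the signal, the TSS window, peak overlap, gene bodies, each replicate alone and the motif windows.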

Additional observations from a re-analysis of the deposited data

How the results depend on the processing

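The count of 8 members with a promoter summit was within 1.5 times under the other series-level list (9, 29.0%, against 16.2% of all genes). The same held at an IDR limit of 0.05 (11, 35.5%, adding E2f2, Orc1 and aurB, against 18.7%) and with peak overlap (8, 25.8%, against 15.2%). It also held with TSS windows of 200 bp (6, 19.4%, without CycE and Cdk1, against 10.5%) and 1000 bp (8, 25.8%, against 16.8%). The count fell to 5 (16.1%) with peaks above the median signal and to 5 (16.1%) at an IDR of 0.001 or below. These settings keep fewer peaks and lower all genes to 1130 (8.09%) and 1236 (8.85%). The wider list's 29 fell to 17 (14.2%) and 19 (15.8%) under these settings. Without replicate 2 the members numbered 5 (16.1%), the wider list 17 (14.2%) and all genes 1591 (11.4%). Without replicate 1 they numbered 6 (19.4%), 23 (19.2%) and 1468 (10.5%). The gene-body count of 0 became 1 at an IDR of 0.05, through Mcm7, beside 9.87% of all genes, and 4 with promoter windows included. The median signal of 104 was 110.3 in the 5 peaks found in both replicates' lists. Matching symbols by synonym, an alternative chosen after seeing the data, gave 30 of 122 wider genes (24.6%). The added gene with a summit was RPA1, whose summit is the one already counted for the member Mcm2. In 500 bp each side of the TSS, members with TTTCCCGC rose from 2 to 5 (16.1%, against 4.45% of all promoters). Members with CACTG rose from 15 to 26 (83.9%, against 86.8%). With the Ohler 7 element they rose from 9 (0 with a summit) to 14 (2 with a summit, dup and Mcm2), which is 45.2% against 19.4%. In 50 bp each side of the summit, member peaks with TTTGAA fell from 4 to 1 of 10, against 16.7% of all summit windows. Those with CACTG fell from 5 to 3 of 10, against 25.1%. The other motif counts stayed within 1.5 times. No paired analysis was possible because there was 1 group. Read depth is unknown, so a missing peak was not detected at an unknown depth, and 31 genes give wide intervals.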
